A study of Mus musculus with 6 samples.

Results

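The genes described here are 42 genes of the extracellular matrix and of the fibroblasts that make it, taken from a list of collagens, matrix glycoproteins, elastic fibre proteins, collagen-processing enzymes and fibroblast surface receptors. A gene was included when a probe on the array carried a RefSeq accession of that gene, and it was kept when some probe of it passed the scanner's background test on 3 arrays or more. This left 41 of the 42 genes, of 23458 genes or unnamed transcripts tested in all. No accession on the array matched Col12a1 in the gene table used, and it is not analysed here. All 41 genes were well above background on all 6 arrays with the probe used, and no spot was saturated.

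RNA came from mammary glands of female mice and was measured in 6 samples, 1 single-colour array each. Every sample, controls included, came from mice with the Trp-53 knockout genotype (Trp53-/-), and no wild-type mice were analysed here. From 3 weeks of age the mice of 3 samples ate a high-fat diet (HFD) and those of the other 3 a control diet (CD), and glands were taken at 8 weeks of age, after 5 weeks on the diet. The labels name mammary glands as the source but epithelial cells in the sample descriptions, and which was hybridised is not settled. They number the replicates without saying whether each came from a separate mouse, so p-values measure the spread between these samples, which may be partly technical. Levels are the log2 signal of a probe minus the log2 of its array's 75th percentile of signal, and differences are high-fat minus control on that log2 scale, with n = 3 samples per diet except where a single slide is compared. In such bulk samples, fewer cells of a type and less RNA per cell cannot be told apart.

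The matrix of the mammary stroma is built from fibrillar collagens, which assemble into fibres together with type V collagen and are decorated by types VI, XII and XIV. Collagen chains are folded with the chaperone Hsp47, trimmed by proteases that enhancer proteins assist, and cross-linked by lysyl oxidases. Elastic fibres form as elastin is laid onto fibrillin microfibrils by fibulins and related adaptors. In the mammary gland, fibroblasts make most of this interstitial matrix, and ducts branch and fill the fat pad within it during puberty.

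Promoter windows of 4 of the genes are shown: the chains Col4a1 and Col4a2, because their windows overlap, Col1a2 as an example of a fibrillar collagen, and Pdgfra, the gene in which the diets did not overlap. No measurement in these data was made at the windows themselves. Each window runs from 250 bases before to 50 bases after the annotated start, 5′ to 3′ on the gene's own strand, from RefSeq on GRCm38.p6. The windows of Col4a1 (chr8:11312777-11313076, minus strand) and Col4a2 (chr8:11312555-11312854, plus strand) lie head to head and share 78 bases, which are in capitals in both and are reverse complements of each other. In Col1a2 (chr6:4505368-4505667, plus strand), capitals mark matches on either strand to GGGCGG and CCAAT, and in Pdgfra (chr5:75152001-75152300, plus strand) none of the 3 motifs searched matched.
Col4a1: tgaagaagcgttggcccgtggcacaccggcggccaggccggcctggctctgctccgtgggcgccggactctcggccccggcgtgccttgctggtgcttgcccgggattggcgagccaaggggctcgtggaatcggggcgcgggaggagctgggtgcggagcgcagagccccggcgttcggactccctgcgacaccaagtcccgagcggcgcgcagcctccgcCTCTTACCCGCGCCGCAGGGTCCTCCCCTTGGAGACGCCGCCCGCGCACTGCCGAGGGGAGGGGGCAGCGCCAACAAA
Col4a2: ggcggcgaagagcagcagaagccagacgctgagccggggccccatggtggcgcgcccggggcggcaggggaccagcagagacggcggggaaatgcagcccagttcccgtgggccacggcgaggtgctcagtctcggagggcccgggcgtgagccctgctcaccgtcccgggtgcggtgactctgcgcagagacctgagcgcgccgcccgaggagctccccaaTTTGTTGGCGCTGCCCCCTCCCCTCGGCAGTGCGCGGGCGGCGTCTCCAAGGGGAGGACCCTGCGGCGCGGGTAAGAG
Col1a2: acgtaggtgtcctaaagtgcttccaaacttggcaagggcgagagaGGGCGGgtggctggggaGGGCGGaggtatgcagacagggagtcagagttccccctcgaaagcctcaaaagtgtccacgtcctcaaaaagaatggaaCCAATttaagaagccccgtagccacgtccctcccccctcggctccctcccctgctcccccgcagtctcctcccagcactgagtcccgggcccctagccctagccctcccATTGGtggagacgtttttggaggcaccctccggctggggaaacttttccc
Pdgfra: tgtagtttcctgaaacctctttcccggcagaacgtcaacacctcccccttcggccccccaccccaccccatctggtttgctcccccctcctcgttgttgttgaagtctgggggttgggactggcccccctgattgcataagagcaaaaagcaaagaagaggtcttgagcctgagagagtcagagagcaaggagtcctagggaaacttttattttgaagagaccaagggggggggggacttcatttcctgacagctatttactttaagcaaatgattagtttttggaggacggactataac
RefSeq windows were matched for 26 of the 42 genes, 32 windows in all. The letters GGGCGG, on either strand, stood in 62.5% of these 32 windows and in 35.7% of the 32851 windows of all genes. CCAAT stood in 25.0% against 37.4%, and TATAAA in 15.6% against 13.6%. Such matches describe the letters of the windows and are not binding sites.

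No matrix or fibroblast gene passed the test between the diets (limma, adjusted p from 0.230 for Pdgfra to 0.960 for Col4a2, where 4 of all 23458 genes passed, or 0.0171%). Mean levels were mostly lower after the high-fat diet: the difference was negative in 35 of 41 genes, against 51.1% of all genes tested, with a median of -0.56 against -0.01. At an unadjusted p under 0.05, 6 of 41 genes had lower values (Pdgfra, Pcolce, Efemp2, Emilin1, Mfap4 and Fbln1) and 0 had higher values, against 7.46% and 5.88% of all genes. For both directions together this is 6 of 41 against 13.3%, a share near the background. In 1 of the 41, Pdgfra, the 3 high-fat samples all lay below the 3 control samples, where the diets did not overlap in 17.2% of all genes (8.75% with lower and 8.47% with higher high-fat samples). When limma weighted the arrays by their estimated quality, 19 of 41 genes passed, all lower, against 23.1% of all genes in either direction. Those weights ran from 0.34 (control replicate 1) to 4.70 (control replicate 3).

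The spread among samples of a diet was wide in these genes. The SD among the 3 samples of a diet had a median over the 41 genes of 0.67 for high-fat and 0.54 for control samples, against 0.20 and 0.21 over all genes tested. High-fat replicate 1 lay below every control sample in 30 of the 41 genes and high-fat replicate 2 in 26, against 28.8% and 30.7% of all genes. High-fat replicate 3 lay below every control sample in 1 gene, within the control range in 31 and above it in 9, against 26.5%, 52.9% and 20.6% of all genes. It was the highest of the 3 high-fat samples in 40 of 41 genes (35.1% of all genes), the exception being Tnxb, and control replicate 1 was the lowest of the 3 control samples in 36 of 41 (49.6% of all genes).

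**Figure D1:**
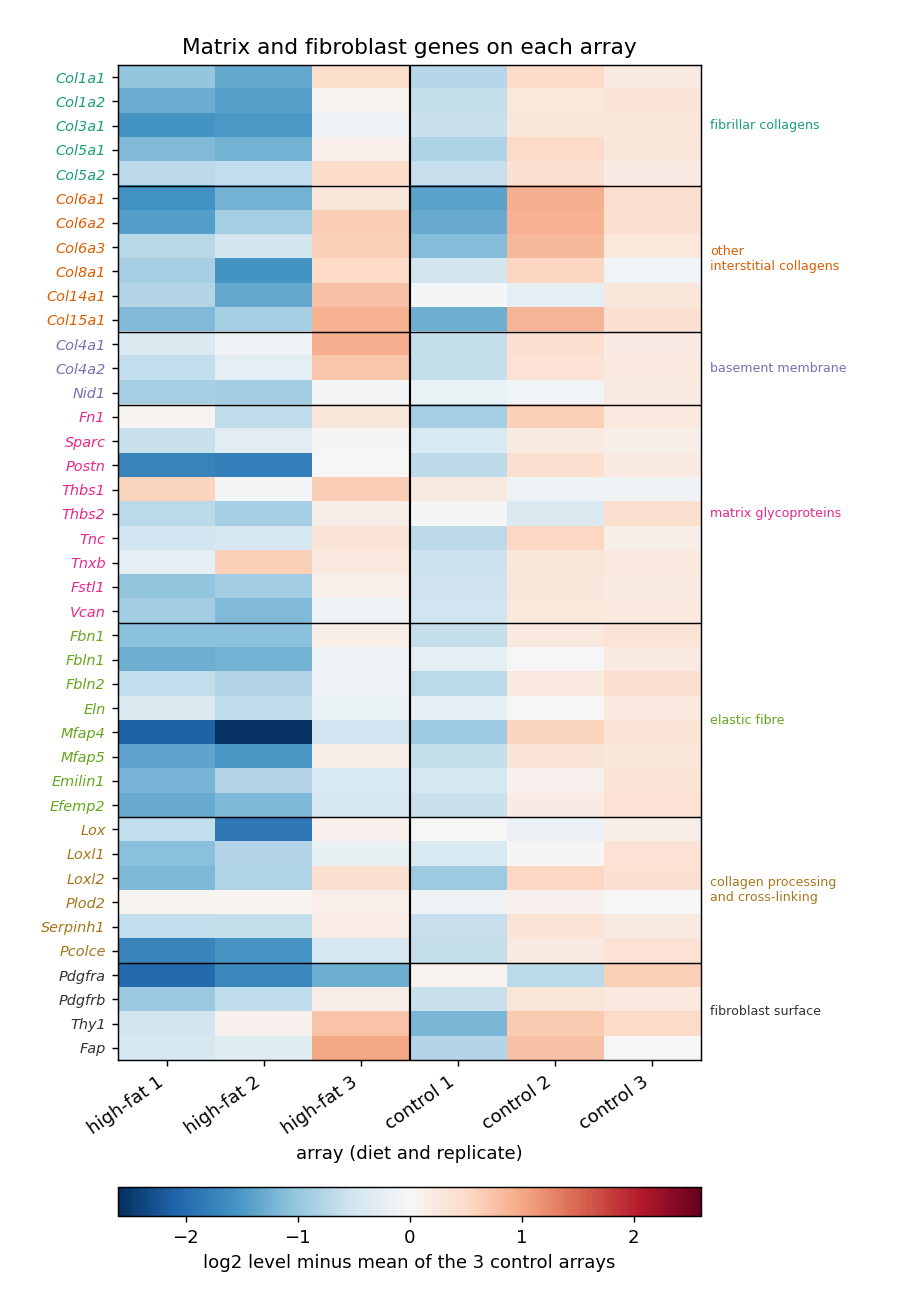
Log2 level of each of the 41 genes (rows, grouped by class) on each of the 6 arrays (columns), minus the mean of the 3 control arrays, blue for lower and red for higher. The columns of high-fat replicates 1 and 2 are mostly blue, that of high-fat replicate 3 mostly pale or red, and that of control replicate 1 mostly blue. Pdgfra lies below the control mean on all 3 high-fat arrays, as do Mfap4, Pcolce, Efemp2 and Emilin1 among others.

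The arrays lay on 3 slides. Control replicate 1 shared its slide with high-fat replicates 2 and 3. High-fat replicate 1 lay on a second slide, control replicates 2 and 3 on the third. A fit with slide as a block takes its estimate from the shared slide alone, and there the median difference of the 41 genes was 0.15 (0.03 over all genes), with 18 of 41 negative (44.0% of all genes). That slide holds 1 control array, control replicate 1, against 2 high-fat arrays, so the fit takes its spread from pairs of arrays of the same slide and diet and assumes that the lone control varies like them. In this fit 2 genes had an unadjusted p under 0.05 (5.25% of all genes), both higher: Thy1 at 1.62 (SE 0.33) and Tnxb at 1.00 (SE 0.22), with an adjusted p of 0.706 and 0.743 in limma. The sign of the list's median therefore differed between the pooled and the within-slide comparison, and it was also carried unevenly by single samples. Without high-fat replicate 3 the median was -0.97 and 22 genes had an unadjusted p under 0.05 (20.4% of all genes), 0 of them past the adjusted test, and without control replicate 1 the median was -0.87 with 10 such genes (23.1% of all genes). Without any 1 of the other 4 arrays the median lay between -0.41 and -0.36.

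**Figure D2:**
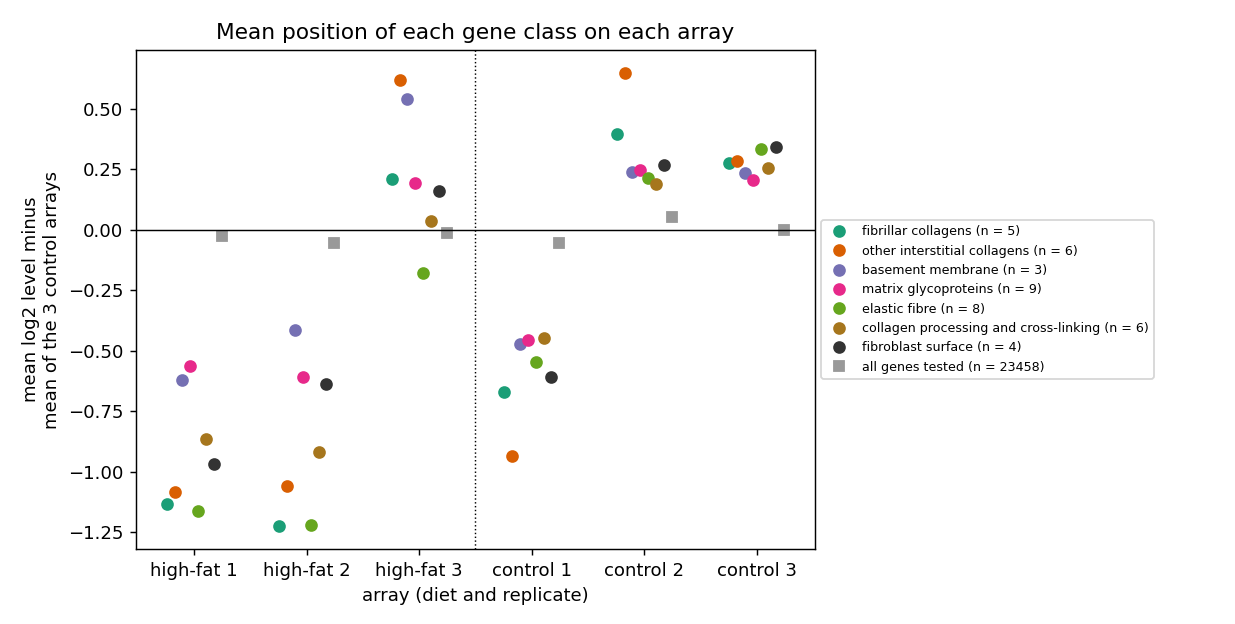
Mean over the genes of each class of the log2 level on an array minus the mean of the 3 control arrays (vertical axis), for the 6 arrays (horizontal axis), with all 23458 tested genes as grey squares near 0. Every class lies below 0 on high-fat replicates 1 and 2 and on control replicate 1, and on high-fat replicate 3 the elastic fibre class is the only one below 0, at -0.18.

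Fibrillar collagens, the rope-like chains that give the stroma its tensile strength, were lower in the mean in 5 of 5 genes, with a median of -0.75, and 0 had an unadjusted p under 0.05. Leaving out control replicate 2 gave a median of -0.50, and leaving out high-fat replicate 3 gave -1.19. Col3a1 (NM_009930), the type III chain of loose connective tissue, had levels of 4.63, 4.69 and 6.10 on high-fat replicates 1 to 3 and 5.61, 6.47 and 6.47 on control replicates 1 to 3, a difference of -1.05 (SE 0.46). High-fat replicate 3 lay above control replicate 1, so the diets overlapped. Col1a2 (NM_007743), the second chain of type I collagen, read 6.14, 6.01 and 7.51 under high-fat and 6.80, 7.71 and 7.77 under control diet (difference -0.87, SE 0.47), with the same overlap. Col5a1, a chain of the type V collagen that starts fibril assembly, read 2.75, 2.66 and 4.02 against 3.08, 4.39 and 4.20 (difference -0.75, SE 0.49). Its partner Col5a2 read -0.80, -0.77 and 0.35 against -0.73, 0.28 and 0.08 (difference -0.28, SE 0.40), the smallest of the class, and high-fat replicate 3 was the highest of all 6 samples. Col1a1 differed by -0.63 (SE 0.54). Within the shared slide the class median was 0.26. As a class, these genes stood -1.13 and -1.23 from the control mean on high-fat replicates 1 and 2, 0.21 on high-fat replicate 3 and -0.67 on control replicate 1.

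Other interstitial collagens had negative differences in 6 of 6 measured genes, with a median of -0.50 and 0 at an unadjusted p under 0.05. Without high-fat replicate 2 the class median was -0.15 and without high-fat replicate 3 it was -1.10. The SD among samples stood at a median of 1.06 in high-fat and 1.07 in control samples. Col6a1 (NM_009933), a chain of the beaded microfibrils that link cells to the interstitial matrix, read 3.82, 4.18 and 5.69 under high-fat and 4.02, 6.36 and 5.83 under control diet (difference -0.84, SE 0.73). Control replicate 1 lay among the high-fat samples. Col6a3, the long chain of the same microfibril, read 3.87, 4.12 and 5.22 against 3.48, 5.44 and 4.88 (difference -0.20, SE 0.58), with control replicate 1 the lowest of all 6. Col8a1, a short-chain collagen found around vessels, read -1.42, -2.10 and -0.02 against -1.02, 0.01 and -0.62 (difference -0.64, SE 0.55). Col14a1, which sits on the surface of collagen fibrils, read -3.25, -3.82 and -1.73 against -2.55, -2.74 and -2.19 (difference -0.44, SE 0.52), and here control replicate 1 was not the lowest control. Col6a2 and Col15a1, a collagen of basement membrane zones, differed by -0.56 (SE 0.73) and -0.37 (SE 0.74). Within the shared slide the class median was 1.05, with Col15a1 at 1.30, Col6a3 at 1.19 and Col6a2 at 1.18, all opposite in sign to the pooled differences.

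The basement membrane genes had a median of -0.05 over 3 genes, which ran from -0.44 without high-fat replicate 3 to 0.24 without high-fat replicate 1. Col4a1 (NM_009931) and Col4a2 (NM_009932) encode the chains of the type IV network that lies under epithelium and around vessels and fat cells, and are transcribed from the head-to-head windows printed above. Col4a1 read 2.28, 2.55 and 3.59 under high-fat and 2.03, 3.06 and 2.86 under control diet (difference 0.16, SE 0.42). Col4a2 read 1.98, 2.37 and 3.33 against 1.99, 2.98 and 2.87 (difference -0.05, SE 0.42). For both, high-fat replicate 3 was the highest of the 6 samples and the diets overlapped. Nid1 (NM_010917), the nidogen that joins the laminin and type IV networks, read 2.98, 2.92 and 3.79 against 3.66, 3.77 and 4.07 (difference -0.60, SE 0.27), with 1 high-fat sample inside the control range. It was also the only gene of the 41 whose probes differed in sign: its dimmer probes gave -0.49 and 0.01.

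Chains were also compared from array to array. Taken as deviations from each chain's control mean, Col4a1 and Col4a2 were at most 0.27 apart on any array and Col1a1 and Col1a2 at most 0.37. Col5a1 and Col5a2 were up to 0.59 apart and the 3 type VI chains up to 0.85. On high-fat replicate 1, where the type VI gap was widest, Col6a1 stood at -1.58, Col6a2 at -1.42 and Col6a3 at -0.73. The chains of a collagen were read from the same RNA on each array, and the gaps are a description with no test. Chains of different collagens could be as close: Col1a2 and Col5a1 were at most 0.22 apart. Over the 6 pairs from the same collagen the median of the largest gap was 0.48, and over the 30 pairs from different collagens it was 0.76, with a range of 0.22 to 1.32.

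Matrix glycoproteins, which bind cells and growth factors to the fibres, had a median difference of -0.27, with 7 of 9 genes negative and 0 at an unadjusted p under 0.05. That median ran from -0.15 without control replicate 2 to -0.54 without control replicate 1. Postn (NM_001198766), periostin, a matricellular protein of remodelling stroma, read 3.04, 2.98 and 4.76 under high-fat and 4.09, 5.21 and 5.00 under control diet. Its difference of -1.17 (SE 0.55) was the largest of the class, and high-fat replicate 3 exceeded control replicate 1. Vcan, the large proteoglycan versican, read 0.43, 0.20 and 1.26 against 0.83, 1.62 and 1.60 (difference -0.72, SE 0.35). Fn1, fibronectin, read 6.25, 5.52 and 6.46 against 5.29, 6.80 and 6.43 (difference -0.10, SE 0.44), and control replicate 1 was the lowest of the 6 samples. Thbs1 (NM_011580), thrombospondin 1, a matricellular activator of latent TGF-beta, ran the other way. It read 5.33, 4.71 and 5.41 under high-fat and 4.99, 4.63 and 4.66 under control diet (difference 0.39, SE 0.22), and its difference stayed positive with each array left out in turn (0.26 to 0.61). Thbs2 differed by -0.46 (SE 0.34), the collagen-binding Sparc by -0.27 (SE 0.24), the follistatin-like Fstl1 by -0.60 (SE 0.38), the tenascins Tnc and Tnxb by -0.20 (SE 0.37) and 0.20 (SE 0.32).

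Elastic fibre genes had a median of -0.83, with 8 of 8 negative, though after normexp background correction (75th percentile kept) Eln was positive, at 0.27, as was the median of all genes there. Of the 8, 4 had an unadjusted p under 0.05, against 7.46% of all genes. Efemp2 (NM_021474), fibulin-4, which brings lysyl oxidase to elastin, read 3.23, 3.37 and 4.09 under high-fat and 3.96, 4.74 and 4.90 under control diet, a 1.96-fold lower level (difference -0.97, SE 0.33). The overlap rested on high-fat replicate 3 against control replicate 1. Mfap4 (NM_029568), a microfibril-associated glycoprotein, read -1.92, -2.38 and -0.31 against -0.76, 0.76 and 0.53, a 3.28-fold lower level (difference -1.71, SE 0.63). Emilin1, a glycoprotein at the interface of elastin and microfibrils, read -2.53, -2.09 and -1.71 against -1.79, -1.22 and -0.96 (difference -0.79, SE 0.29). Fbln2, a fibulin of basement membranes and elastic fibres, read 5.04, 4.91 and 5.54 against 4.98, 5.93 and 6.12 (difference -0.51, SE 0.34). Fbln1 differed by -0.87 (SE 0.34), the fibrillin Fbn1 by -0.67 (SE 0.42), Mfap5 by -0.91 (SE 0.50) and elastin itself, Eln, by -0.39 (SE 0.19). Within the shared slide 6 of 8 were negative and the class median was -0.14, the only class median below 0 there. The values of Mfap4, Fbln1 and Efemp2 in it were -0.59, -0.43 and -0.23.

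Collagen processing and cross-linking genes had a median of -0.59, with 5 of 6 negative. That median ran from -0.32 without high-fat replicate 2 to -0.95 without high-fat replicate 3. Pcolce (NM_008788), which speeds the removal of the procollagen carboxyl end, read 4.47, 4.65 and 5.75 under high-fat and 5.58, 6.43 and 6.57 under control diet, a 2.36-fold lower level (difference -1.24, SE 0.41). Only the pair of high-fat replicate 3 and control replicate 1 overlapped. Loxl1, a lysyl oxidase that acts on elastin, read 3.57, 3.90 and 4.46 against 4.26, 4.68 and 5.02 (difference -0.68, SE 0.29). Lox, which cross-links collagen and elastin, read -0.23, -1.45 and 0.51 against 0.41, 0.26 and 0.55 (difference -0.80, SE 0.47), a value to which high-fat replicate 2 contributed most: without it the difference was -0.27. Plod2, the lysyl hydroxylase of collagen end peptides, was the steadiest of the 41 genes, at 0.24, 0.23 and 0.32 against 0.05, 0.30 and 0.19 (difference 0.08, SE 0.12). Loxl2 differed by -0.51 (SE 0.55) and Serpinh1, the chaperone Hsp47, by -0.35 (SE 0.34), and within the shared slide they stood at 0.76 and 0.38.

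The fibroblast surface genes did not share a direction, with 2 of 4 negative and a median of -0.20 that ran from -0.62 without control replicate 1 to 0.075 without control replicate 2. Pdgfra (NM_011058), the platelet-derived growth factor receptor of stromal fibroblasts and their precursors, read 1.09, 1.44 and 1.84 under high-fat and 3.21, 2.41 and 3.73 under control diet. It was 3.16-fold lower after the high-fat diet (difference -1.66, SE 0.37, adjusted p = 0.230 in limma), lower in 3 of 3 high-fat samples than in any control sample, and -1.57 within the shared slide. Leaving out each array in turn kept it between -2.01 and -1.35. Pdgfrb, the receptor of pericytes and fibroblasts, read 3.16, 3.46 and 4.29 against 3.54, 4.44 and 4.37 (difference -0.48, SE 0.37). Thy1, a surface glycoprotein of fibroblasts and some other cells, read 3.91, 4.49 and 5.14 against 3.20, 5.07 and 4.89 (difference 0.13, SE 0.56), with control replicate 1 the lowest of the 6 samples. Fap, fibroblast activation protein, a surface protease of activated fibroblasts, read 0.57, 0.66 and 1.98 against 0.22, 1.74 and 0.97 (difference 0.09, SE 0.51, and -0.0455 after normexp background correction). For Pdgfrb, Thy1 and Fap the diets overlapped, and within the shared slide they stood at 0.34, 1.62 and 1.097.

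**Figure D3:**
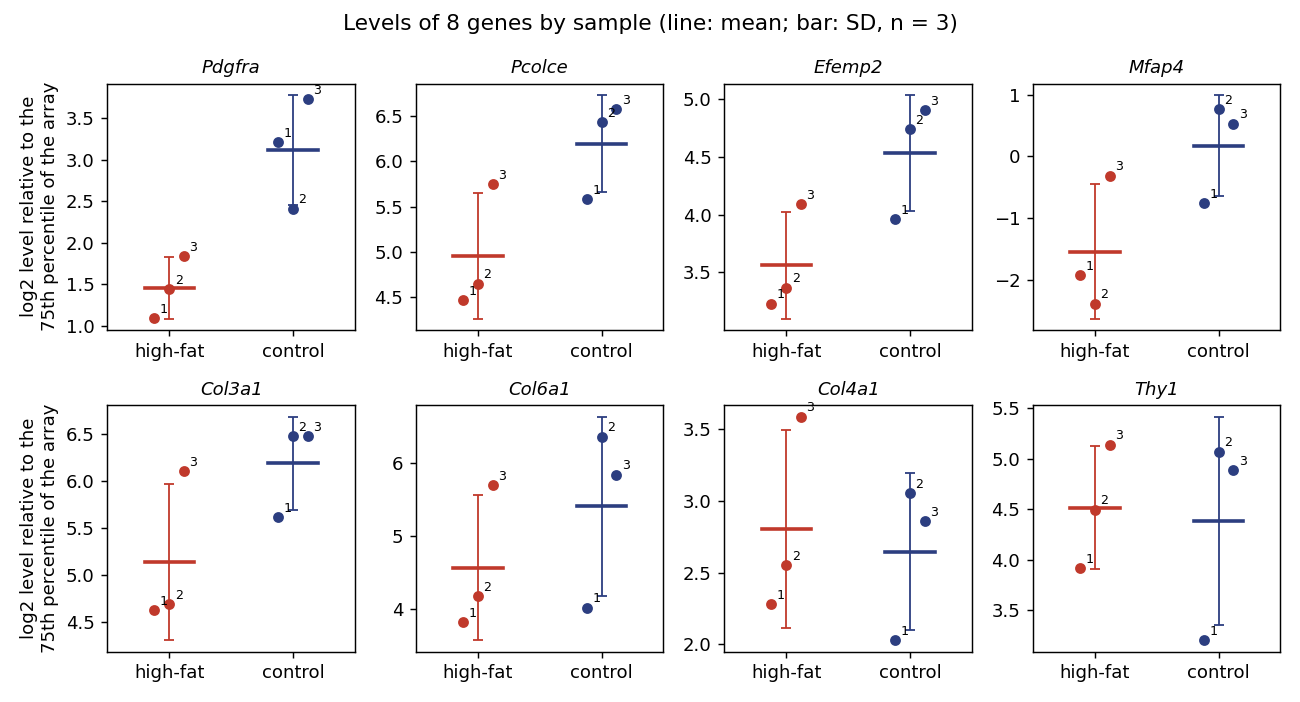
Log2 level relative to the array's 75th percentile (vertical axes, with a scale of their own in each panel) of 8 genes in each high-fat (red) and control (blue) sample, numbered by replicate, with the mean (line) and SD (bar, n = 3). Pdgfra is the panel in which the diets do not overlap, and in all the other panels control replicate 1 is the lowest control sample.

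Across the 41 genes the pooled and the within-slide differences had the same sign in 24. The genes that were negative in both included Pdgfra, Lox (-0.88 within the slide), Mfap4, Fbln1 and Pcolce (-0.38 within the slide). Those with the largest positive values within the slide were Thy1, Col15a1, Col6a3, Col6a2 and Fap. With each array left out in turn, 29 of the 41 genes kept a negative difference in all 6 fits, which share most of their arrays. For the same-sign count and this one, the share over all genes was not computed.

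**Figure D4:**
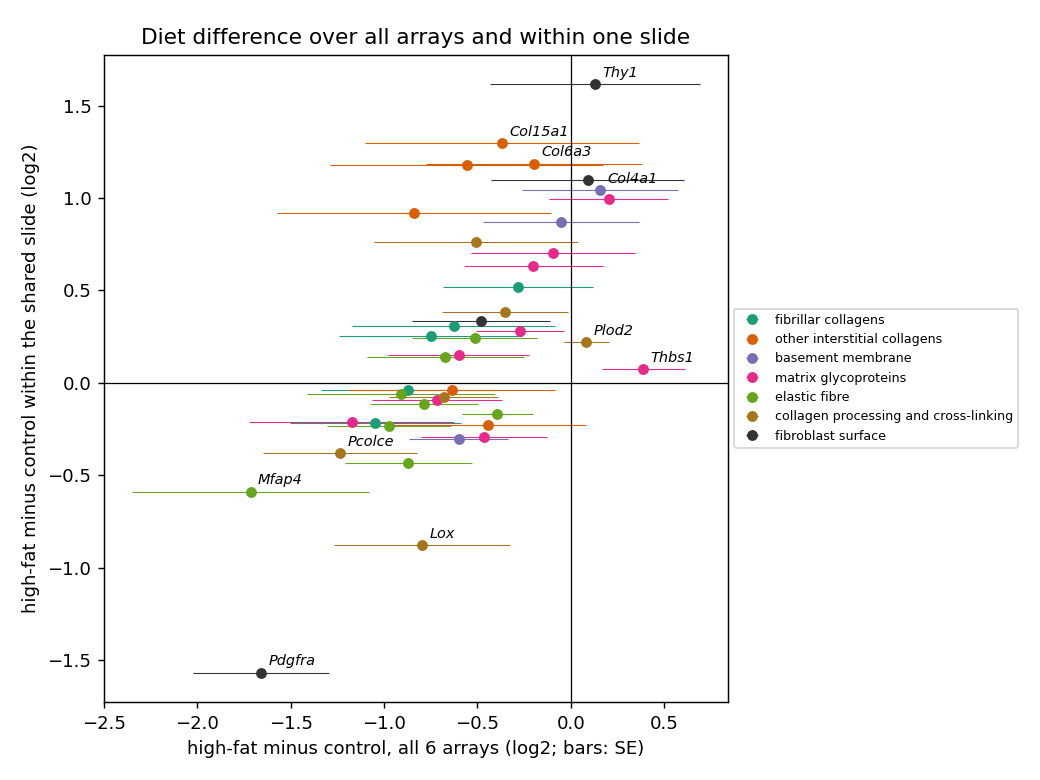
High-fat minus control log2 difference over all 6 arrays (horizontal axis, bars are the SE) against the difference within the shared slide (vertical axis) for the 41 genes, coloured by class. Pdgfra lies apart at the lower left (-1.66 and -1.57), and Thy1 at the top (0.13 and 1.62).

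Of the further genes of the same pathways, 0 passed the test over all genes. Their counts at an unadjusted p under 0.05, given below, stand beside 7.46% of all genes lower and 5.88% higher. Of 24 measured genes of collagen folding and secretion, 18 were negative with a median of -0.23, 1 lower and 1 higher at an unadjusted p under 0.05. They were Loxl4, a lysyl oxidase (-0.47, SE 0.15), and P3h2, a prolyl hydroxylase (0.72, SE 0.24). Of 14 further elastic fibre and microfibril genes, 8 were negative (median -0.15) and 3 had lower values at that threshold. Efemp1, fibulin-3, read 0.27, 0.03 and 1.33 under high-fat and 3.34, 2.21 and 3.37 under control diet, without overlap (difference -2.43, SE 0.45, adjusted p = 0.196 in limma, and -2.66 within the shared slide). Fbln5 differed by -1.37 (SE 0.45) and Mfap2 by -1.45 (SE 0.56). The 16 measured further collagen chains had a median of -0.02 and went both ways, with 2 lower and 3 higher at that threshold: Col17a1, the hemidesmosome collagen of basal epithelium, differed by 1.26 (SE 0.26), Col27a1 by 0.72 (SE 0.19) and Col24a1 by -2.61 (SE 0.69). The 10 laminin and basement membrane genes had a median of -0.27 with 9 negative and 0 at that threshold, the smallest p being that of Lama2 (-1.41, SE 0.62). The 16 measured collagen and fibronectin receptors had a median of -0.04, with 1 lower and 2 higher at that threshold. They were the integrin chains Itga8 (-0.89, SE 0.36) and Itgb1 (0.54, SE 0.15) and the syndecan Sdc1 (0.42, SE 0.11).

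Markers of the cell types a gland can hold varied over the same arrays. For each list, signals relative to the 75th percentile were summed on a linear scale over its measured genes, so the brightest genes weigh most. Of 15 fibroblast markers 14 were measured, of which Pdgfra and Mfap5 are also described above. Their sum was 89.2 to 139 on the high-fat and 177 to 225 on the control arrays, 11 of 14 were negative, and 6 had lower values at an unadjusted p under 0.05 (7.46% of all genes). Cd34 (-1.41, SE 0.21) and Twist2 (-1.19, SE 0.20) had the smallest p and did not pass (adjusted p = 0.132 and 0.160 in limma). Luminal markers, 12 of 12 measured, summed to 239 to 460 against 197 to 298. Their mean stood at 0.91, 1.16 and 0.06 from the control mean on high-fat replicates 1 to 3 and at 0.38, -0.25 and -0.13 on control replicates 1 to 3. The 41 matrix and fibroblast genes stood at -0.91, -0.90 and 0.19 and at -0.58, 0.31 and 0.27 on the same arrays. The fibroblast markers stood at -0.95, -0.76 and -0.25 and at -0.11, -0.12 and 0.24. The basal and myoepithelial markers stood at 1.06, 0.83 and 1.01 and at -0.08, 0.25 and -0.17. Basal and myoepithelial markers (10 of 10) summed to 224 to 267 against 99.5 to 153, and skeletal muscle markers (10 of 12, Myh2 not well above background on any array) to 2.98 to 4.65 against 6.09 to 9.65. Sums of pericyte and vascular smooth muscle markers (9 of 9) were 17.5 to 23.2 against 14.1 to 21.3, of endothelial markers (10 of 10) 13.2 to 24.5 against 13.8 to 23.4, and of white adipocyte markers (12 of 12) 7.04 to 12.1 against 7.53 to 9.19. Macrophage markers (8 of 10, Cd163 not well above background) summed to 6.57 to 8.56 against 7.20 to 11.3 and Schwann cell markers (7 of 7) to 4.60 to 6.37 against 6.39 to 7.13. Lymphocyte markers (7 of 10, with Cd3g, Cd8a and Ms4a1 not well above background) reached 4.50 to 4.96 against 4.13 to 5.08 and keratinocyte markers (8 of 10, Flg2 not well above background) 4.04 to 5.46 against 2.53 to 4.73. At an unadjusted p under 0.05 in limma, 7 of 10 basal markers were higher and 7 of 10 skeletal muscle markers lower. Higher too were 4 of 12 luminal and 3 of 8 keratinocyte markers, and lower 3 of 7 Schwann cell markers, with 1 higher. White adipocyte markers had 1 lower and 3 higher, pericyte markers 1 each way, macrophage markers 1 lower and lymphocyte markers 1 higher. Endothelial markers had 0. Over all genes 7.46% were lower and 5.88% higher. The adipocyte markers with the smallest p were Cfd (1.78, SE 0.27) and Adipoq (1.04, SE 0.22), both dim. Neither passed (adjusted p = 0.132 and 0.222 in limma), and 4 of the 12 adipocyte markers were negative. The part of these cell types in the matrix values was not tested.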

How the data were processed

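Arrays were 1-colour (Cy3) Agilent mouse arrays, 1 per sample, annotated on mm9 and extracted by Agilent Feature Extraction 11.0.1.1, per the file headers. The deposited scanner files hold linear spot intensity: the processed signal, after background subtraction and detrending by that software, and median spot and background signals. The deposited table of values holds scaled intensity, and divided by the array's processed signal 99.9% of them gave a constant, to within 1%. The median of each column was 0.134, 0.134 and 0.137 (high-fat) and 0.134, 0.140 and 0.134 (control), in replicate order; the scale is linear, without centring of genes.

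Control spots and outlier-flagged spots were left out, spots of a probe were averaged, and log2 processed signal was taken relative to the 75th percentile of the array. Probes were named through RefSeq accessions of the gene table (GRCm38.p6): 27427 of 39429 matched 1 symbol. Probes well above background on at least 3 arrays were kept (28687), and the brightest probe stood for a gene. Between 27202 and 29409 probes per array were well above background, and the 75th percentile ran from 1326 to 1973 intensity units. The number of arrays limits the precision.

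The comparison used limma 3.58.1 under R 4.3.3 (linear model with empirical Bayes, two-sided, Benjamini-Hochberg over 23458 genes, threshold 0.05), high-fat minus control, without covariates. An exact permutation test of 3 against 3 samples cannot go below p = 0.1 and was not used. The fit was also run on simulated arrays with independent noise for each gene and no slide effect. That run does not bear on slides or on shifts that genes of an array share. The labels number the replicates but do not say how they relate.

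The genes, classes, lists and rules were chosen with earlier results of these data known. Levels array by array are given for the 3 genes of each class with the smallest p and the 1 with the largest, or all of a class of 3 or 4; in other lists up to 3 pathway genes or 2 markers are named. Other genes were named after their values were seen. Lists were fibrillar, other interstitial and basement membrane collagens with Nid1, glycoproteins, elastic fibre, processing and fibroblast surface genes, 5 pathway lists and 11 marker lists. Alternatives covered scaling, background, filter, probe rule, variance, array weights, slide and replicate blocks, the deposited table and leaving out arrays. Normexp (offset 50) used median signals.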

Additional observations from a re-analysis of the deposited data

How the results depend on the processing

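The 41 matrix and fibroblast genes gave 0 passing genes under every alternative but array weights, which gave 19 (5409 of all genes passed there). With the deposited table of values only 36 of the 41 were measured. All genes passing, 4 in the chosen analysis, were 0 with quantile scaling, with the 75th percentile over detected probes, with normexp and the 75th percentile, with no filter, with the slide block and with the replicate block, 2 with median scaling, 7 with normexp and quantile and 7 with probes well above background on all arrays. They were 0 to 37 with each array left out. Matrix and fibroblast genes at an unadjusted p under 0.05 were 30 with array weights (41.7% of all genes), 2 with the slide block (5.25%) and 1 to 22 with each array left out (6.02% to 23.1%). The 22, without high-fat replicate 3, stood beside 20.4% of all genes, and the 23.1%, without control replicate 1, beside 10 such genes. With the replicate block 13 such genes were counted (17.2% of all genes). Each gene's deviations from its diet mean correlated between same-numbered samples at 0.33, -0.14 and 0.25, so the numbers were not taken as pairing.

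With the slide block, which rests on 3 arrays, the medians were 0.15 (all 41), 0.26 (fibrillar), 1.05 (other interstitial), 0.87 (basement membrane), 0.15 (glycoproteins), -0.14 (elastic fibre), 0.071 (processing) and 0.72 (surface). Differences that turned positive there were Col1a1 0.31, Col5a1 0.26, Col5a2 0.52, Col6a1 0.92, Col6a2 1.18, Col6a3 1.19, Col15a1 1.30, Col4a2 0.87, Fn1 0.70, Sparc 0.28, Tnc 0.63, Fstl1 0.15, Fbn1 0.14, Fbln2 0.24, Loxl2 0.76, Serpinh1 0.38 and Pdgfrb 0.34. With array weights the medians were -1.04 (all 41), -1.29 (fibrillar), -1.06 (other interstitial), -0.46 (basement membrane), -0.53 (glycoproteins), -1.23 (elastic fibre), -1.07 (processing) and -0.65 (surface), and Col4a1 (-0.24), Thy1 (-0.43) and Fap (-0.24) turned negative. With normexp and the 75th percentile, where the median of all genes was 0.27, Eln stood at 0.27 and Fap at -0.0455. With each array left out, the basement membrane median ran from -0.44 to 0.24 and the surface median from -0.62 to 0.075, and signs varied for Col6a3 (-0.76 to 0.22), Col14a1 (-1.05 to 0.00018), Col15a1 (-1.01 to 0.075), Col4a1 (-0.23 to 0.42), Col4a2 (-0.44 to 0.24), Fn1 (-0.54 to 0.22), Tnc (-0.54 to 0.065), Tnxb (-0.081 to 0.43), Thy1 (-0.46 to 0.47) and Fap (-0.37 to 0.47). The cause of these shifts was not tested. All 41 genes were well above background on all 6 arrays.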
